A study of Arabidopsis thaliana with 4 samples.

Results

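The 10 genes described here are known in Arabidopsis thaliana as genes induced by sugar starvation or darkness, or as close companions of such genes. They are ASN1 (DIN6), GAT1_2.1, BCAT-2, ERD5, MIOX4, BGLU30 (DIN2), DIN9, DIN10, SEN1 (DIN1) and bZIP1, where DIN stands for dark inducible. They were found by their locus codes and make up 10 of the 23922 loci in the count table. They were picked with their difference between wild type and plt1 plt2 callus already known, so their values in that comparison are a description and carry no test. RNA-seq was run on callus, a mass of dividing cells, grown from hypocotyl explants. Seedlings had been kept in darkness for 9 days on medium without sucrose, and pieces of about 1 cm were then cultured at 22 °C in continuous light. The callus induction medium held 2% sucrose, 11 µM of the synthetic auxin 2,4-D and 0.2 µM of the cytokinin kinetin, and culture lasted 5 to 6 days by the protocol and 6 days by the stage label. One group of 2 libraries is labelled wild type, accession Col-0, and the other group of 2 is labelled as the plt1 plt2 double mutant, whose alleles are not given in the sources used here. Each RNA sample pooled about 100 calli, and no label tells whether the pools of a genotype were grown separately, so a p-value here reflects only the spread between these pools, which may be technical.

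In plants the kinase SnRK1 becomes active when sugar or energy runs short, and hexokinase and trehalose 6-phosphate signal that sugar is plentiful. SnRK1 acts in part through basic leucine zipper (bZIP) transcription factors of the C and S1 groups, which bind ACGT-containing DNA and related elements and switch on genes for the breakdown of amino acids, storage sugars and cell wall material. ASN1 and SEN1 are widely used as readouts of that state, since in green tissue their transcripts are low in light or with sugar and rise in extended darkness.

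Upstream DNA of 4 of the genes is shown first, because it is where ACGT-containing boxes and starvation elements were searched. The printed windows are the 250 bases before the annotated start in RefSeq's TAIR10.1 annotation, 5′ to 3′ on the strand of the gene, for the 4 genes of amide and amino acid metabolism. Capitals mark the G-box CACGTG, its core ACGT, the element ACTCAT (reverse complement ATGAGT) and the element TATCCA (reverse complement TGGATA).
ASN1 (chr3:17441432-17441681, minus strand): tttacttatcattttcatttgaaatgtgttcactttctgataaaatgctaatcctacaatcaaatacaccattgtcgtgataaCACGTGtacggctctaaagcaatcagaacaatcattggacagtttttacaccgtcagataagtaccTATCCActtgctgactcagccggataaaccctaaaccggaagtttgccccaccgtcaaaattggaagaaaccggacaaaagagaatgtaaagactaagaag
GAT1_2.1 (chr1:5181403-5181652, minus strand): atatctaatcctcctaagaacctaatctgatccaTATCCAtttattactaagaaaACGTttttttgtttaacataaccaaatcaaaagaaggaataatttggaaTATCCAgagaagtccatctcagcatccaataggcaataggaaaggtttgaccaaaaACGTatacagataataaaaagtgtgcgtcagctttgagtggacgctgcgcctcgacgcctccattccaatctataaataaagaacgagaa
BCAT-2 (chr1:3287837-3288086, plus strand): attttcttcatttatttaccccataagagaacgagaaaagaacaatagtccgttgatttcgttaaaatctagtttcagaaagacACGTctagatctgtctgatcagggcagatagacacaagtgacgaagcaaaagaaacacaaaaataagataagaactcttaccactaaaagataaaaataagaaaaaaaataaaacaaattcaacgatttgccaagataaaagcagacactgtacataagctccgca
ERD5 (chr3:12451557-12451806, minus strand): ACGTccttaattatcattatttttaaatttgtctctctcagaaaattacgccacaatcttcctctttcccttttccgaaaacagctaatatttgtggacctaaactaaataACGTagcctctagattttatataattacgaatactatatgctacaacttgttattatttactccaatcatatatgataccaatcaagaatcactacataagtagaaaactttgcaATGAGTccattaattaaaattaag
All 10 genes had such a window, and motifs were searched on both strands from 250 bases before the start to 50 after it. CACGTG, which contains the ACGT core, stood in the window of 1 of the 10 genes, ASN1, at 167 bases before the start and again 37 bases after it, and in 7.7% of 27443 windows of protein-coding genes. ACGT stood in 5 of the 10 windows, those of ASN1, GAT1_2.1, BCAT-2, DIN10 and ERD5, against 49.9% of all windows. ACTCAT, the element known from work on the ERD5 promoter, stood in the windows of ERD5 and DIN9 and in 14.7% of all windows. TATCCA, a sugar-starvation element known from rice amylase genes, stood in 6 of the 10 windows, among them those of ASN1, GAT1_2.1, BCAT-2, SEN1 and MIOX4, and in 16.1% of all windows. In GAT1_2.1 it occurred at 216 and at 146 bases before the start, and in SEN1 and BCAT-2 it lay after the start. BGLU30 had no match to any of these motifs. Part of the ASN1 window, 136 bases, is also annotated as exon of AT3G47341 on the other strand. A match of letters does not show that a factor binds there.

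Between 53907649 and 63209401 reads were counted in a library. Chi-square per degree of freedom was 5.34 between the wild type libraries and 7.75 between the plt1 plt2 ones, above the 1 that sampling noise alone gives, so no library was merged with another. PLT1 had 171 and 166 CPM (reads scaled to a common library size) under the wild type label and 122 and 128 CPM under the plt1 plt2 label. PLT2 had 63.1 and 62.1 CPM against 182 and 179 CPM, and so was higher in the libraries labelled as its mutant. As the alleles are not given, these transcript levels cannot check the labels. The libraries are therefore called by their labels, and every direction below rests on those labels. WOX5 and SCR, which mark the root founder tissue that callus resembles, were present at 133 to 162 CPM and at 205 to 280 CPM.

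All 10 genes were higher in both libraries labelled plt1 plt2 than in both labelled wild type. Of all 19325 genes tested, 27% showed that order and 27.7% the opposite one, with both below both. The log2 fold changes, positive where the plt1 plt2 libraries are higher, ran from 0.18 for DIN10 to 2.19 for GAT1_2.1, and their median was 1.47, against a median of -0.0005 over all genes tested. In 6 of the 10 genes the value was 1 or more, a size reached by 1.18% of tested genes. All 10 passed the filter on low counts, with at least 13 reads in every library. All 10 were also called higher at an adjusted p below 0.05 (edgeR quasi-likelihood test), as were 4.63% of tested genes; since the genes were chosen on this comparison, nothing is read from that count.

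**Figure D1:**
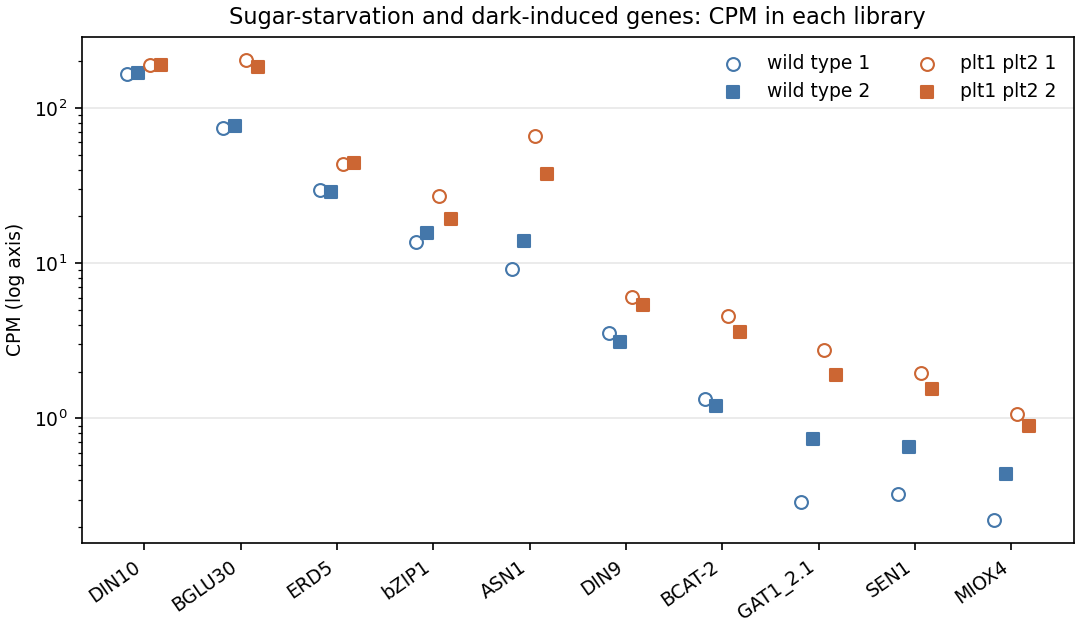
CPM of the 10 genes (log axis) in each of the 4 libraries, ordered by their wild type mean; blue marks the libraries labelled wild type, orange those labelled plt1 plt2, circles replicate 1 and squares replicate 2. For each gene both orange points lie above both blue points, with the narrowest gap at DIN10 (165 and 169 against 189 and 189 CPM).

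Among the enzymes of amide and amino acid metabolism, ASN1 and GAT1_2.1 held the largest values of the 10 genes. ASN1 (AT3G47340; TAIR10.1 chromosome 3, 17437840 to 17441431, minus strand) encodes a glutamine-dependent asparagine synthetase, which packs nitrogen into asparagine when carbon is scarce. It stood at 9.15 and 13.8 CPM under the wild type label (replicates 1 and 2) and at 66.2 and 37.2 CPM under the plt1 plt2 label, a log2 fold change of 2.18 ± 0.24 (SE). The labels did not overlap, but the 2 libraries labelled plt1 plt2 lay 1.78-fold apart, so the ratio between single libraries of the labels ran from 2.69 to 7.23.

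GAT1_2.1 (AT1G15040; chromosome 1, 5179887 to 5181402, minus strand) encodes a class I glutamine amidotransferase-like protein. It was far scarcer, with 17 and 42 reads (0.291 and 0.739 CPM) under the wild type label and 175 and 104 reads (2.76 and 1.90 CPM) under plt1 plt2. Its log2 fold change was 2.19 ± 0.36, and it ran from 1.66 without the library labelled wild type 1 to 3.00 without wild type 2. On the other strand AT1G15030 overlaps 47.2% of its exon bases together with a small second gene, and the use of strand in counting is not given, so its count is uncertain. AT1G15030 itself had 17.6 and 18.7 CPM against 18.2 and 17.97 CPM (log2 fold change -0.01 ± 0.06).

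BCAT-2 (AT1G10070; chromosome 1, 3288087 to 3290471, plus strand) encodes a branched-chain amino acid transaminase, the enzyme type that makes and begins to break down leucine, isoleucine and valine. It had 1.33 and 1.20 CPM under the wild type label and 4.56 and 3.63 CPM under plt1 plt2 (1.69 ± 0.19). The libraries labelled wild type lay 1.115-fold apart and those labelled plt1 plt2 1.257-fold. The plt1 plt2 libraries were at least 2.72-fold above the wild type ones. AT1G10090 overlaps 9.2% of its exon bases from the other strand and had a log2 fold change of 0.10 ± 0.08.

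ERD5 (AT3G30775; chromosome 3, 12448636 to 12451556, minus strand) is the gene of proline dehydrogenase, the mitochondrial enzyme that starts proline breakdown. It had 29.4 and 28.8 CPM against 43.7 and 43.9 CPM, a log2 fold change of 0.59 ± 0.05. The 2 libraries of each label were nearly equal, and the means lay 1.503-fold apart.

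The carbohydrate enzymes ranged from the most to the least abundant of the group. BGLU30 (AT3G60140; chromosome 3, 22216540 to 22220824, plus strand) encodes a member of the β-glucosidase family, enzymes that release glucose from glycosides. It had 73.7 and 76.1 CPM under the wild type label and 204 and 182 CPM under plt1 plt2 (1.37 ± 0.06). That 2.58-fold difference of means was even across libraries, at 2.39 to 2.77 between single libraries. DIN10 (AT5G20250; chromosome 5, 6833564 to 6836862, plus strand), of the raffinose synthase family, had 165 and 169 CPM against 189 and 189 CPM (0.18 ± 0.04). It was the most abundant of the 10 genes under the wild type label and the one that differed least.

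DIN9 (AT1G67070; chromosome 1, 25041833 to 25044659, plus strand) encodes a phosphomannose isomerase, which interconverts mannose 6-phosphate and fructose 6-phosphate. It had 3.56 and 3.11 CPM against 6.02 and 5.40 CPM (0.78 ± 0.14). MIOX4 (AT4G26260; chromosome 4, 13297695 to 13300444, plus strand) encodes a myo-inositol oxygenase, which opens the inositol ring to glucuronic acid. With 13 and 25 reads (0.222 and 0.440 CPM) against 68 and 49 reads (1.07 and 0.897 CPM) it was the scarcest of the group (1.58 ± 0.37). Its labels did not overlap, yet the 2 libraries labelled wild type differed from each other about as much as the nearest libraries of the labels did (ratios of 0.506 and 2.04).

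SEN1 (AT4G35770; chromosome 4, 16944878 to 16946266, plus strand) encodes a rhodanese-domain protein and is a classical marker of darkness and senescence. It had 19 and 37 reads (0.325 and 0.651 CPM) under the wild type label and 124 and 85 reads (1.96 and 1.56 CPM) under plt1 plt2, a log2 fold change of 1.85 ± 0.33. The level stayed low in every library. bZIP1 (AT5G49450; chromosome 5, 20051829 to 20052735, plus strand), an S1-group transcription factor of the starvation response, had 13.7 and 15.7 CPM against 27.0 and 19.3 CPM (0.66 ± 0.13). The library labelled plt1 plt2 1 carried much of that difference, and the value was 0.39 without it.

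Levels were compared between genes per kilobase of exon. The mean levels in the libraries labelled wild type were 53.4 CPM per kb for DIN10, 32.1 for BGLU30, 16.2 for bZIP1, 13.4 for ERD5, 4.18 for ASN1 and 1.59 for DIN9. BCAT-2 followed at 0.722, SEN1 at 0.376, GAT1_2.1 at 0.340 and MIOX4 at 0.221 CPM per kb. In the libraries labelled plt1 plt2 BGLU30 was first at 82.7 and DIN10 next at 60.6, and ASN1 reached 18.8 CPM per kb, close to ERD5 at 20.1. The 4 scarcest genes, BCAT-2, SEN1, GAT1_2.1 and MIOX4, were the same under both labels. Under the wild type label the libraries of SEN1, GAT1_2.1 and MIOX4 overlapped in level, and the other neighbours in that order did not. Under the plt1 plt2 label bZIP1 overlapped with ASN1, ASN1 with ERD5, DIN9 with BCAT-2, and GAT1_2.1 with SEN1.

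The 10 genes also varied between libraries of 1 label. The library labelled wild type 1 was below wild type 2 by 1.34 (log2) for GAT1_2.1, 1.00 for SEN1, 0.98 for MIOX4 and 0.60 for ASN1. In the libraries labelled plt1 plt2 the first was above the second by 0.83 for ASN1, 0.53 for GAT1_2.1, 0.49 for bZIP1, and 0.33 for both BCAT-2 and SEN1. Those 4 and 5 values lay outside the range that held the middle of all genes with a mean of 20 or more reads, from the 5th to the 95th percentile (-0.24 to 0.30 for wild type and -0.32 to 0.31 for plt1 plt2). BGLU30, DIN9, DIN10 and ERD5 stayed inside it in both labels. For GAT1_2.1, SEN1 and MIOX4 the wild type reads are few, and counting error adds to the ratio. In 6 of the 10 genes the libraries ran in the same order from wild type 1 over wild type 2 and plt1 plt2 2 to plt1 plt2 1, as they did for 6.04% of all tested genes. The 10 genes were chosen with the comparison of the labels known, and all had both plt1 plt2 libraries above both wild type ones. That separation held for only 27% of tested genes, so nothing is read from the 6.04%.

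**Figure D2:**
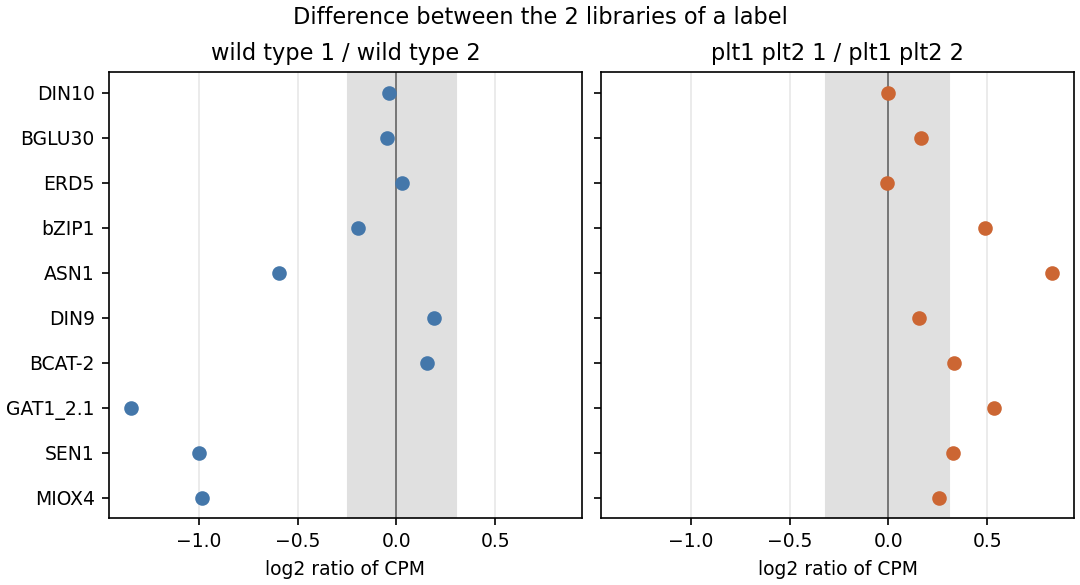
Log2 ratio of CPM between the 2 libraries labelled wild type (left) and the 2 labelled plt1 plt2 (right) for each of the 10 genes; grey bands hold the 5th to 95th percentile over 18340 genes with a mean of 20 or more reads. GAT1_2.1, SEN1, MIOX4 and ASN1 lie left of the wild type band, and ASN1, GAT1_2.1, bZIP1, BCAT-2 and SEN1 lie right of the plt1 plt2 band.

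The closest relatives of these genes gave calls in both directions. A list of 30 isoforms and family members held 26 with a row in the table, 20 of them tested; 3 were called higher and 2 lower (edgeR, adjusted p below 0.05; 15% and 10%, against 4.63% and 5.86% of all genes tested), and the median log2 fold change was -0.04. Another 6 relatives with a row that were too scarce to test, among them BCAT1 and BGLU29, had at most 0.0684 CPM in any library, and the other four were not analysed here. Without the library labelled wild type 2 the calls numbered 3, and without plt1 plt2 2 they numbered 8.

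The other asparagine synthetase genes were abundant. ASN2 had 132 and 127 CPM under the wild type label and 133 and 125 CPM under plt1 plt2 (-0.01 ± 0.05, edgeR adjusted p = 0.95), and ASN3 had 220 and 225 against 244 and 229 CPM (0.09 ± 0.05, edgeR adjusted p = 0.284). Among the branched-chain transaminases, BCAT3 (-0.07 ± 0.04), BCAT5 (-0.08 ± 0.05) and BCAT6 (0.03 ± 0.04) were not called either, each at 52.0 CPM or more in every library. ProDH2, the second proline dehydrogenase gene, had 1.11 and 1.42 CPM against 2.81 and 1.76 CPM (0.86 ± 0.26) and missed the threshold (edgeR adjusted p = 0.0656). AT5G38200, a relative of GAT1_2.1, stood at -0.23 ± 0.10 (edgeR adjusted p = 0.194).

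The 3 relatives called higher moved in the direction of their family member. BGLU28, another β-glucosidase gene, rose from 22.5 and 22.9 to 41.0 and 44.4 CPM (0.91 ± 0.06, edgeR adjusted p = 5.79e-06), and MIOX2 rose from 18.1 and 21.2 to 29.5 and 27.5 CPM (0.54 ± 0.08, edgeR adjusted p = 0.00145). MIOX1 had 0.28 ± 0.23 and was not called. In the raffinose synthase family SIP2 rose by 0.32 ± 0.06 (edgeR adjusted p = 0.0054, and 0.0585 without the library labelled wild type 2), while RS5 (-0.07 ± 0.06) and SIP1 (-0.51 ± 0.17) were not called. PMI1, the second phosphomannose isomerase gene, was at 21.2 to 22.4 CPM in every library (-0.06 ± 0.06).

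The other S1 bZIP genes gave 1 call. The bZIP2 gene fell from 23.5 and 22.4 to 16.0 and 18.5 CPM (log2 fold change -0.41 ± 0.08, edgeR adjusted p = 0.00612), opposite to bZIP1, and its adjusted p was 0.0528 without the library labelled wild type 1. bZIP11 (-0.07 ± 0.11), bZIP44 (0.11 ± 0.15) and bZIP53 (0.04 ± 0.05) were not called. Of the sulfurtransferase relatives of SEN1, STR18 fell by 0.30 on the log2 scale (edgeR adjusted p = 0.0186, and 0.154 without wild type 2) and STR16 had a value of -0.14 ± 0.07.

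**Figure D3:**
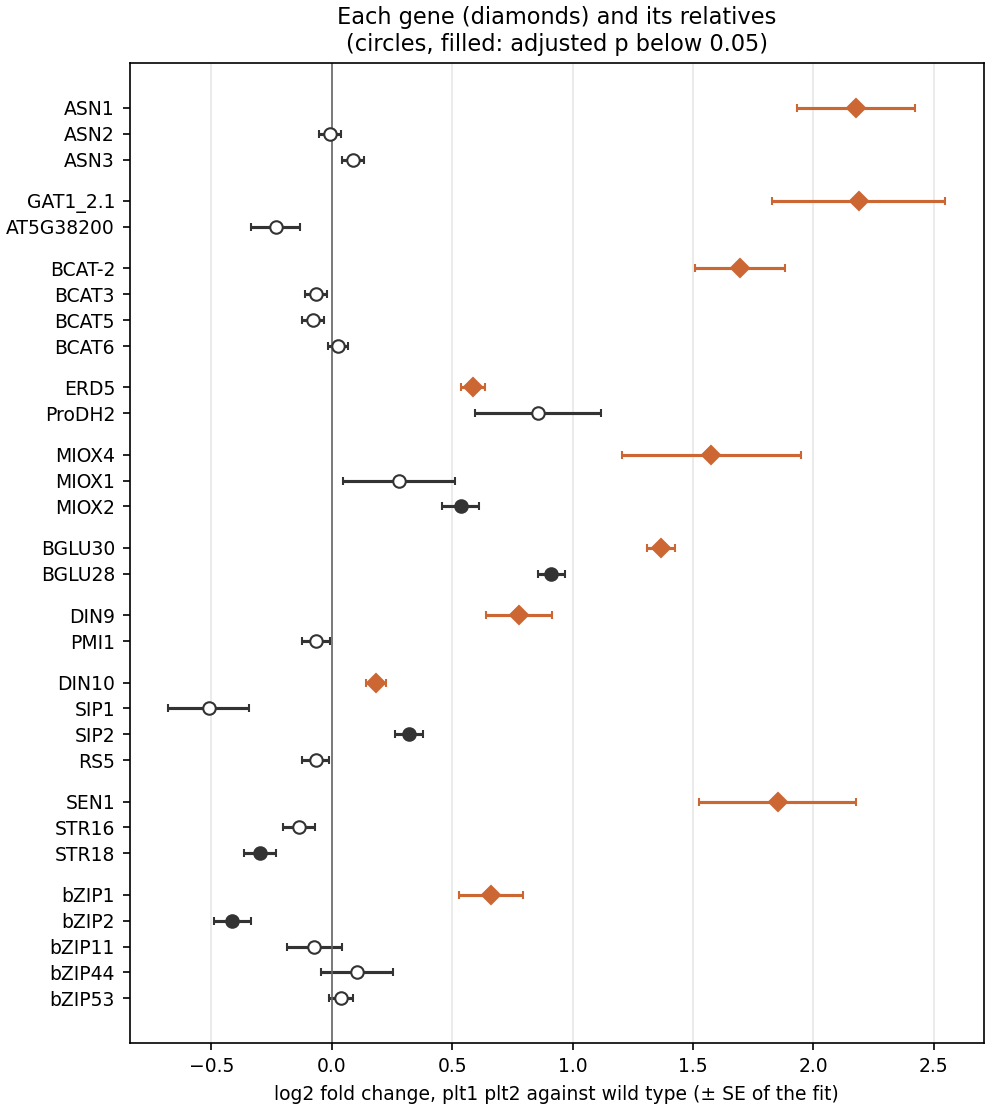
Log2 fold change between the labels (x axis, bars ± SE of the fit) for each of the 10 genes (orange diamonds) above its tested relatives (circles, filled where the adjusted p was below 0.05). BGLU28, MIOX2 and SIP2 are the filled circles right of 0, and STR18 and bZIP2 those left of 0, while ASN2 and ASN3 stay at -0.01 and 0.09 below ASN1 at 2.18.

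Most other dark-inducible and low-energy genes also had values above 0, with a small median. Of 22 tested, 5 rose and 1 fell (22.7% and 4.55%, against 4.63% and 5.86% of all genes tested), 20 had a log2 fold change above 0 (49.8% of all genes), and the median was 0.14. The calls numbered 9 higher and 0 lower without plt1 plt2 2, 7 and 0 without wild type 2, and 4 and 0 without wild type 1. AT1G21400, of the branched-chain ketoacid dehydrogenase complex that acts after BCAT enzymes, rose from 3.10 and 3.78 to 10.01 and 8.26 CPM (1.41 ± 0.14, edgeR adjusted p = 0.000125). SEN5 (AT3G15450), a marker of SnRK1 activity, rose from 27.0 and 35.1 to 58.6 and 45.1 CPM (0.74 ± 0.13, edgeR adjusted p = 0.00429, and 0.0547 by DESeq2). It had the same order of the 4 libraries as ASN1. LKR, which starts lysine breakdown, rose by 0.41 ± 0.06 and the dormancy-associated gene DRM1 by 0.34 ± 0.06 (edgeR adjusted p = 0.00124 and 0.00468).

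The sugar transporter gene STP1, which sugar represses, fell from 66.2 and 65.9 to 59.9 and 53.0 CPM (-0.23 ± 0.06, edgeR adjusted p = 0.035), lost on leaving out wild type 1 (0.137), wild type 2 (0.134) or plt1 plt2 2 (0.173). TPS8, named after its values were seen as the remaining called gene, rose by 0.18 ± 0.05 (edgeR adjusted p = 0.0275), lost on leaving out wild type 1 (0.192) or wild type 2 (0.0611) and with a replicate block (0.0549). DIN3 (0.12 ± 0.05) and DIN4 (0.15 ± 0.07), dark-inducible genes of the same dehydrogenase complex, were not called and are likewise named after their values were seen. So is threonine aldolase gene THA1, with 2 and 13 reads under the wild type label and 59 and 16 under plt1 plt2 (2.24 ± 0.72, edgeR adjusted p = 0.0795).

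The energy signalling list held 16 tested genes. Of these genes for SnRK1 subunits, C-group bZIPs, TOR complex members, the TOR-regulated S6 kinases, hexokinase and trehalose 6-phosphate synthase, 0 were called by edgeR or DESeq2 and 5 had an unadjusted edgeR p below 0.05, and the median of their log2 fold changes was 0.05. Of all 19325 genes tested, 10.5% were called and 4752 had an unadjusted p below 0.05. The smallest p value belonged to TPS1, which makes trehalose 6-phosphate (-0.59 ± 0.17, edgeR adjusted p = 0.0535). It went from 4.00 and 3.27 to 2.24 and 2.60 CPM. Hexokinase gene HXK1 came next (-0.15 ± 0.05, edgeR adjusted p = 0.0724). Genes on the other strand overlap 9.9% of the exon bases of TPS1 and 10.2% of those of HXK1. The use of strand in counting is not given, so both counts are uncertain. On leaving out wild type 1, 1 gene was called higher, and on leaving out plt1 plt2 2, 1 was called lower.

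Autophagy genes, which starvation also raises in plants, were tested for 23 members. Of these 0 were called by edgeR or DESeq2, against 10.5% of all genes tested by edgeR, and the median was 0.03. An unadjusted edgeR p below 0.05 was found for 5, all with higher values under plt1 plt2. Of all 19325 genes tested, 4752 had such a p, 2207 of them with higher values under plt1 plt2. ATG3, of the ATG8 conjugation system, had 48.3 and 49.0 against 56.7 and 53.1 CPM (0.17 ± 0.05, edgeR adjusted p = 0.0527), and ATG8E had 17.97 and 18.1 against 20.9 and 20.3 CPM (0.20 ± 0.06, edgeR adjusted p = 0.0717). Without the library labelled plt1 plt2 2, 2 autophagy genes were called higher, and without plt1 plt2 1, 1 was.

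Among 24 tested amino acid turnover genes 3 rose and 3 fell (12.5% each, against 4.63% and 5.86% of all genes tested, median -0.04). The asparaginase gene ASPGB1, whose enzyme frees ammonium from asparagine, rose from 29.4 and 27.9 to 40.0 and 44.1 CPM (log2 fold change 0.55 ± 0.06, edgeR adjusted p = 0.000247). The cytosolic glutamine synthetase gene GLN1-4 rose (0.61 ± 0.10, edgeR adjusted p = 0.00259), and the plastid form GLN2 fell from 15.0 and 14.9 to 8.23 and 9.06 CPM (-0.79 ± 0.08, edgeR adjusted p = 0.000167). The glutamate dehydrogenase gene GDH1 fell from 202 and 199 to 147 and 162 CPM (-0.38 ± 0.05, edgeR adjusted p = 0.00102). P5CDH, the enzyme after ERD5 in proline breakdown, fell by 0.23 on the log2 scale (edgeR adjusted p = 0.0146, and 0.115 without wild type 2), and 31.3% of its exon bases overlap a gene on the other strand. The call of the electron transfer gene ETFQO, named after its values were seen (0.20 ± 0.06, edgeR adjusted p = 0.0491) was lost on leaving out wild type 1 (0.254), wild type 2 (0.0721) or plt1 plt2 1 (0.0923), by DESeq2 (0.134) and with a replicate block (0.0621).

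Around MIOX4 and DIN10, of 11 tested inositol and galactinol genes 2 rose and 1 fell (18.2% and 9.09%, against 4.63% and 5.86% of all genes tested, median -0.06). MIPS1, which makes inositol phosphate, fell from 36.7 and 35.5 to 26.9 and 28.4 CPM (-0.38 ± 0.05, edgeR adjusted p = 0.0014), and MIPS2 rose by 0.23 ± 0.05 (0.0232), lost by DESeq2 (0.0734) and on leaving out wild type 1 (0.113), wild type 2 (0.0998) or plt1 plt2 1 (0.0508). Galactinol synthase gene GolS2 was called at a handful of reads, with 0.0684 and 0.0528 against 0.2365 and 0.348 CPM. Its call (edgeR adjusted p = 0.0462) was lost on leaving out wild type 1 (0.175), wild type 2 (0.261) or plt1 plt2 2 (0.236), by DESeq2 (0.168), with no filter on low counts (0.0781) and with a replicate block (0.0562). Only 1 of the genes was called without wild type 1, without wild type 2 or by DESeq2.

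Sugar-induced genes were split as well, 2 higher and 1 lower of 9 tested (22.2% and 11.1%, against 4.63% and 5.86% of all genes tested, median -0.04). The chalcone synthase gene CHS rose from 1163 and 1209 to 1589 and 1583 CPM (0.42 ± 0.04, edgeR adjusted p = 0.00016), and TBL26 rose by 0.50 ± 0.12 (0.0194), lost on leaving out wild type 1 (0.131) or wild type 2 (0.0639). APL4, a large subunit of the starch enzyme ADP-glucose pyrophosphorylase, fell from 2.45 and 2.80 to 0.268 and 0.201 CPM (-3.46 ± 0.28, edgeR adjusted p = 3.17e-05). Without plt1 plt2 2, 5 of the genes were called, 2 higher and 3 lower.

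Leaf senescence genes gave 3 higher and 2 lower of 10 tested (30% and 20%, against 4.63% and 5.86% of all genes tested, median -0.10). The chlorophyll b reductase gene NYC1 (0.46 ± 0.05, edgeR adjusted p = 0.000267), SEN4, which encodes a xyloglucan-modifying enzyme (0.47 ± 0.06, 0.000411), and WRKY6 (0.19 ± 0.05, 0.0478) rose. On leaving out wild type 2 the adjusted p of WRKY6 was 0.32, and on leaving out plt1 plt2 1 it was 0.0714. The senescence regulator NAP fell from 52.7 and 54.8 to 35.5 and 31.7 CPM (-0.68 ± 0.06, edgeR adjusted p = 5.73e-05), and the sugar exporter gene SAG29 from 55.6 and 47.7 to 24.5 and 33.4 CPM (-0.84 ± 0.12, edgeR adjusted p = 0.00128). SEN1 was thus higher in the same libraries in which NYC1, SEN4 and WRKY6 were higher and NAP and SAG29 were lower.

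Greening genes were examined because light acts on the same dark-induced genes. Of 6 tested, 0 were called by edgeR or DESeq2, against 10.5% of all genes tested by edgeR, and the median was -0.01. An unadjusted edgeR p below 0.05 was found for 0 of them, and for 4752 of all 19325 genes tested. The protochlorophyllide reductase gene PORB had 1.98 and 2.06 against 1.32 and 1.92 CPM (-0.32 ± 0.22, edgeR adjusted p = 0.415). The light-harvesting gene CAB1 stayed at 0.238 to 0.662 CPM in every library (0.55 ± 0.50, edgeR adjusted p = 0.546). Near-identical sequence elsewhere in the genome matches 67.6% of the exon bases of CAB1. A gene on the other strand overlaps 8.8% of them, so the level of CAB1 is uncertain.

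**Figure D4:**
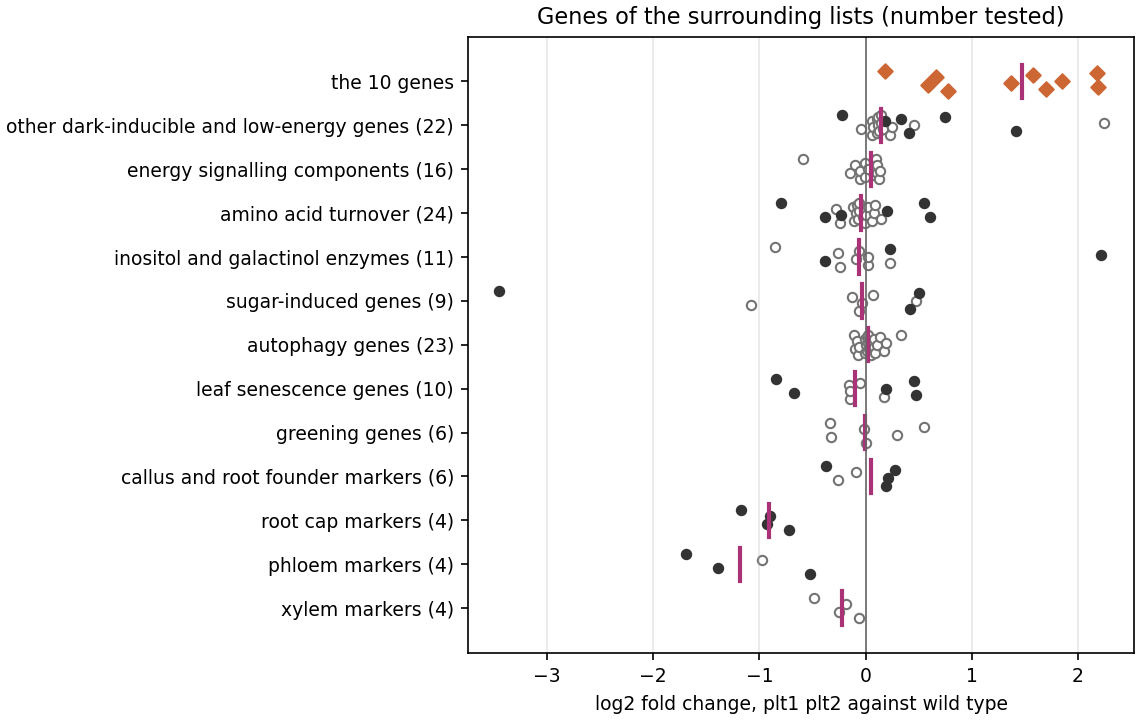
Log2 fold change between the labels for the tested genes of each list (1 point per gene, filled where the adjusted p was below 0.05, number tested in brackets; vertical bars are medians), with the 10 genes on top as diamonds. The low-energy list has 20 of its 22 points right of 0 with a median of 0.14, the autophagy list lies within -0.11 to 0.33, and root cap and phloem markers lie left of 0.

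Markers of other cell types moved in the same libraries. Of all genes tested, 4.63% were called higher and 5.86% lower, and each marker list below holds only a few genes. All 4 root cap markers were called lower by edgeR (median -0.91), and 3 of the 4 by DESeq2. They were SMB (-0.73 ± 0.14), BRN1 (-0.90 ± 0.15), BRN2 (-0.93 ± 0.21) and FEZ (-1.17 ± 0.13). Their summed level was 57.6 to 62.4 CPM under the wild type label and 26.5 to 37.5 CPM under plt1 plt2. SMB and BRN2 were no longer called on leaving out wild type 1 (edgeR adjusted p = 0.0927 and 0.0889), which left 2 of the 4. Of 4 phloem markers SUC2 (-0.52 ± 0.15), SEOR1 (-1.39 ± 0.27) and SEOR2 (-1.69 ± 0.27) fell and APL (-0.97 ± 0.29) was not called (median -1.18), with sums of 8.11 to 9.34 against 4.61 to 4.73 CPM, and 1 was called without wild type 1 or without wild type 2 and 2 by DESeq2. The SUC2 call (edgeR adjusted p = 0.0482) was lost by DESeq2 (0.12), with a replicate block (0.0595) and on leaving out wild type 1 (0.256), wild type 2 (0.111) or plt1 plt2 2 (0.0512), and also with the crossed block added later (0.0606). None of 4 xylem markers was called by edgeR or DESeq2 (1 had an unadjusted p below 0.05), with LAC17 at -0.49 ± 0.23 and CESA7 at -0.26 ± 0.11; without plt1 plt2 1, 1 was called lower. Of 6 callus and root founder markers, WOX5 (0.19 ± 0.05), LBD16 (0.28 ± 0.06) and LBD18 (0.21 ± 0.05) rose and SCR (-0.37 ± 0.05) fell; 1 was called without wild type 1, 2 without wild type 2 and 2 without plt1 plt2 1. None of the markers was at 0 in any library. In such bulk samples a change in the number of cells of a type and a change in RNA per cell cannot be told apart, and the part of these cell types in the values of the 10 genes was not tested.

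The genes with the pattern most like that of the 10 were found by distance in log2 CPM, centred on the mean over the 4 libraries, from the median profile of the group (-0.72 and -0.46 in wild type 1 and 2, and 0.78 and 0.59 in plt1 plt2 1 and 2). The search covered only tested genes with a mean of 20 or more reads outside the 10 genes and the lists. Genes of the lists may therefore lie nearer. The nearest 5 of those searched were AT1G47980 (desiccation-like protein, distance 0.165), AT4G25940 (ENTH/ANTH/VHS domain protein, 0.195), E13L3 (0.203), the receptor kinase gene ERL2 (0.207) and AT3G07620 (a glycosyltransferase, 0.218). ERL2 had 5.28 and 5.70 against 13.4 and 13.5 CPM, and AT1G47980 had 0.735 and 1.04 against 2.37 and 2.11 CPM. Of the 10 genes themselves BGLU30 lay nearest to the profile at 0.202 and DIN10 farthest at 1.11. Over 4 libraries in 2 groups, likeness mostly reflects the size of the difference between the labels.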

How the data were processed

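RNA-seq reads of 4 callus libraries, 2 per label, were analysed from the deposited table of raw read counts per gene. The build was TAIR10 and the tools named are STAR 2.7.2b, Trim Galore 0.5.0 and DESeq2, per the submitters' processing notes. Which program made the counts, from which annotation and with what use of strand, is not given in the sources used here. No columns of other samples were present. The 10 genes and 13 gene lists (185 genes, 159 tested) were chosen with earlier results of these data known. Genes were tested with edgeR 4.0.16 in R 4.3.3: filterByExpr by label, TMM scaling, then glmQLFit and glmQLFTest on the label alone. P-values were adjusted by Benjamini-Hochberg across 19325 genes, and calls were made below 0.05. The SE is the log2 fold change divided by the square root of F. CPM was computed here, with library sizes scaled by TMM. DESeq2 1.42.0, other filters and scalings, a replicate block and leaving out each library were alternatives. Named were the 10 genes, PLT1, PLT2, all tested relatives and the 5 nearest profiles outside the 10 genes and the lists. Of each list up to 5 called genes by size of change were named (the 2 with the smallest p where fewer than 2 were called). The fit was tested on simulated data. Of the 23922 loci 23755 matched the TAIR10.1 RefSeq table, which gave names, positions and sequences. Matches of exon sequence elsewhere in the genome (BLAST 2.17.0, 95% identity over 100 bases) were 0% for the 10 genes.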

Additional observations from a re-analysis of the deposited data

How the results depend on the processing

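All 10 genes kept a log2 fold change above 0 under every alternative run, except that MIOX4 was not tested with a mean of 50 or more reads. In each gene both plt1 plt2 libraries lay above both wild type ones. Leaving out a library could therefore hardly reverse a sign, and nothing is read from that. The median of the 10 genes, 1.47, ran from 1.253 to 1.569 when single libraries were left out. It was 1.49 with plain library totals. Without wild type 1 their log2 fold changes ran from 0.165 to 1.91, and without wild type 2 from 0.2 to 3. The number of the 10 genes called was 9 by DESeq2 (bZIP1 lost) and 9 with a replicate block (DIN10 lost). As the genes were chosen on this comparison, nothing is read from these counts. Across all genes 2027 were called, 1068 to 3026 with single libraries left out, 1666 by DESeq2, 2489 with no filter and 1909 with a replicate block.

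Leaving out single libraries gave 3 to 8 calls among the relatives (5 with all libraries), 4 to 9 among low-energy genes (6), 0 to 1 among energy signalling components (0), 1 to 2 among inositol and galactinol enzymes (3), 2 to 5 among sugar-induced genes (3), 0 to 2 among autophagy genes (0), 1 to 5 among callus markers (4), 2 to 4 among root cap (4), 1 to 4 among phloem (3) and 0 to 1 among xylem markers (0). With no filter 1 energy signalling gene and 1 autophagy gene were called, DESeq2 size factors gave 1 autophagy gene, and DESeq2 gave 1 inositol or galactinol gene. The calls of the 39 list genes were kept in 339 of 389 trials, lost in 50 and reversed in 0. Deviations of same-numbered libraries from the means of their labels had a correlation of -0.121 across genes. With 2 libraries per label this is a single value, which cannot tell whether same-numbered samples were grown or prepared together. A crossed replicate block, added after seeing the data, called 2340 genes, 1 of them for energy signalling and 1 for autophagy. The cause of these shifts was not tested. Depth limits GAT1_2.1, SEN1 and MIOX4 most, at 13 to 42 reads per wild type library.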
